A study of Mus musculus with 2 samples.

Results

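Oligodendrocyte precursor and myelin genes were compared between 2 cultures of a mouse glioblastoma stem cell line, one carrying an shRNA against Gli2 and one carrying a non-target shRNA. The members were 31 genes of the oligodendrocyte lineage, out of 23784 genes that could be named on the array. They were found by the RefSeq accession of their probes. By role, 4 were precursor genes, 6 were genes of maturing cells and 21 were genes of myelin or of the mature oligodendrocyte. The line grows as neurospheres with EGF and bFGF and was derived from brain tumours that a Sleeping Beauty transposon had induced in mice. Both cultures were stably transduced with a lentivirus, so the control also carries a vector and an shRNA. Each group is 1 array of 1 line, so none of the values has a replicate behind it, no test was possible, and the differences describe these 2 cultures. A single line is a narrow model of the tumour.

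Oligodendrocytes arise from dividing precursor cells, which respond to PDGF through the receptor Pdgfra and carry the NG2 proteoglycan Cspg4. Precursors that leave the cell cycle pass through a short committed stage marked by Gpr17, Bcas1 and Enpp6, and the factor Myrf then switches on the myelin genes. Myelin is a stack of membrane rich in galactolipids, held together by proteins such as Mbp and Mobp. Many gliomas resemble the precursor stage, and Hedgehog signalling, which ends in the Gli transcription factors, specifies early oligodendrocyte precursors in the ventral neural tube.

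Values are the processed signal, which is the background-subtracted brightness of a spot as given by the scanner software, and the log2 difference, Gli2 shRNA minus control, after each array was scaled to its 75th percentile. The Gli2 shRNA array was 1.21 times brighter at that percentile, so 0.28 is taken off each raw log2 ratio. Signals of a gene are given in the order control, Gli2 shRNA. The error after ± comes from the scanner software for the pair of spots and covers no culture. A gene was measured on an array when its probe was marked well above background. With bulk RNA, fewer cells of a type and less RNA per cell cannot be told apart.

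Gli2 itself gave signals of 98.1 and 57.9, a difference of -1.04 ± 0.22 on its 1 probe, or 48.7% of the control level. Over the 15986 named genes measured on at least 1 array, the median difference was -0.01 and the median absolute difference 0.22. At 2-fold or more, 416 of these genes were higher and 430 lower. Higher genes made up 49.2% of these calls, 64.7% with median scaling, 59.5% with quantile normalization, 59.6% with cyclic loess and 27.0% without the filter on dim probes. Median scaling moves every difference up by 0.14.

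Of the 31 members, 19 were above background on both arrays, 1 in the control only, 1 with the Gli2 shRNA only and 10 on neither. The 10 were the precursor genes Cspg4 and Neu4 (a sialidase), the maturation genes Gpr17 (a receptor of committed precursors), Enpp6 (a choline phosphodiesterase), Tmem163 (a zinc transporter) and Myrf, and the myelin genes Cldn11, Mobp, Fa2h and Aspa. Their 14 probes gave signals from 2.59 to 14.2, and 9 of these were under 6 on both arrays. The lowest signal well above background was 12.8 for the control and 15.2 for the Gli2 shRNA. They get no direction below. The 10 of 31 are 32.3% of the members, and 32.8% of all named genes were likewise measured on neither array. By role they were 6 of 10 precursor and maturation members and 4 of 21 myelin members.

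**Figure D1:**
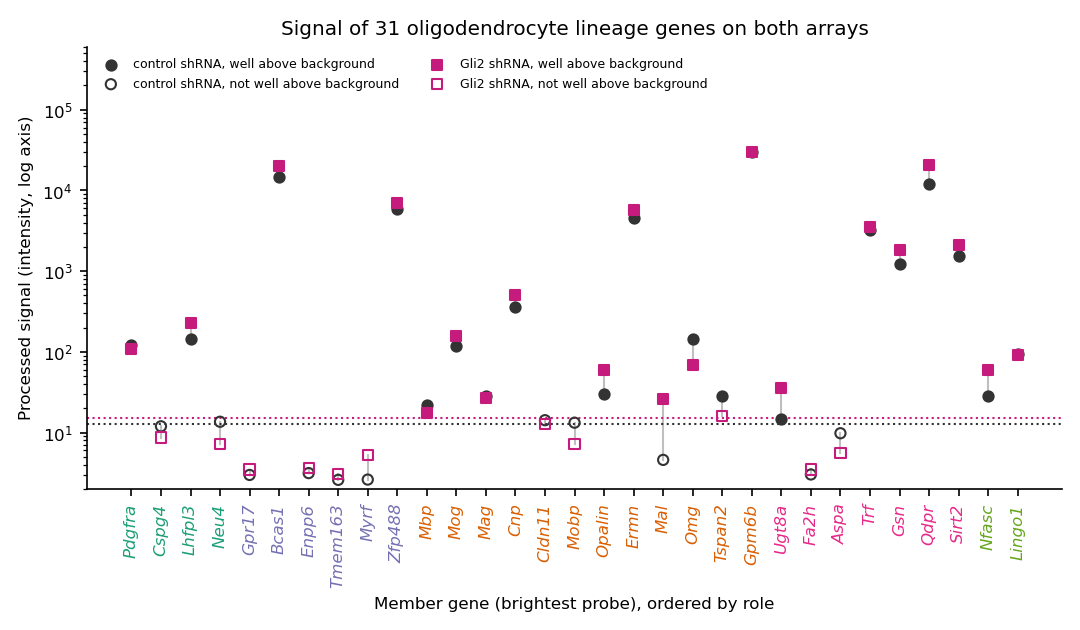
Processed signal (log axis) of each of the 31 members on the control array (dark circles) and the Gli2 shRNA array (pink squares), before scaling, on the brightest probe of the gene; open symbols are not well above background and dotted lines mark the lowest signal well above background on each array. Names are coloured by role. The Gli2 shRNA array was 1.21 times brighter at its 75th percentile, so a higher pink square need not mean a higher scaled level. Gpm6b and Trf, for instance, have higher squares but scaled differences of -0.26 and -0.18. Signals of different genes cannot be compared, since probes differ in brightness.

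Sox10, the factor that defines the oligodendrocyte lineage together with Olig2, was likewise not well above background, at 8.58 and 15.6. Olig2, which specifies precursors and is kept in many gliomas, was measured at 2359 and 2444, a difference of -0.23 ± 0.20. The markers of neural stem cells were measured in 7 of 7 cases, Prom1 on the Gli2 shRNA array only, with 3 above 0, 4 below and a median of -0.06. Among them Nes, the intermediate filament nestin, gave 11613 and 19441 (0.47 ± 0.20), Sox2 gave 5594 and 6516 (-0.06 ± 0.20) and Cd44, a hyaluronan receptor and the 1 marker of this list past 1.5-fold, gave 959.5 and 668.8 (-0.80 ± 0.20).

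The promoters of the measured precursor members and of 2 myelin members that were higher on the Gli2 shRNA array are shown for their sequence around possible GLI, Sox and E-box letters. Each is the 250 bases taken as lying before the start of the gene, 5′ to 3′ on the strand of the gene, from RefSeq on build GRCm38.p6. Of 22862 genes with 1 window, 74.7% had their listed start at the base after these 250. The genes shown were not checked singly. Capitals mark matches to ACAAAG, a core of Sox factor sites, or to CAGCTG, an E-box bound by proneural factors, on either strand.
Pdgfra, chr5:75152001-75152250, plus strand: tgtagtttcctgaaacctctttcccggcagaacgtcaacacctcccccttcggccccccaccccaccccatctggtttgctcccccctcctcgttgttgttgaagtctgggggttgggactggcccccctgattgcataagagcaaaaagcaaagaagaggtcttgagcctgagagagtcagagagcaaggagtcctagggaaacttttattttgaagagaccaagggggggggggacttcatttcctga
Lhfpl3, chr5:22745804-22746053, plus strand: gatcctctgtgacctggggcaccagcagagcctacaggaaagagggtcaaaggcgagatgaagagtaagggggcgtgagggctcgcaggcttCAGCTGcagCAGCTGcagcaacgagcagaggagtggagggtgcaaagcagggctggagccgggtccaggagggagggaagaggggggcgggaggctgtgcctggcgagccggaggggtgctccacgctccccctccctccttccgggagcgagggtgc
Qdpr, chr5:45450230-45450479, minus strand: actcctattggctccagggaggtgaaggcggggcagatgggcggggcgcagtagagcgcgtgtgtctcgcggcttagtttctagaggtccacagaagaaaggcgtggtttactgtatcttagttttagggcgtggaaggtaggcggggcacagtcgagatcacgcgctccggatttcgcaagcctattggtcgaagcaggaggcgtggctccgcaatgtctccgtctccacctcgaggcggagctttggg
Opalin, chr19:41077114-41077363, minus strand: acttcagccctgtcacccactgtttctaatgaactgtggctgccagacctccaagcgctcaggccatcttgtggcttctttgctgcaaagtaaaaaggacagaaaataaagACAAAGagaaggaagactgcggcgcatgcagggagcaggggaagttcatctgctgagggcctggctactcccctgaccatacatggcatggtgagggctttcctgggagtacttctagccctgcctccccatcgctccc
The Lhfpl3 window held 2 E-boxes 3 bases apart and the Opalin window 1 Sox core, and the Pdgfra and Qdpr windows held neither. GACCACCCA, the consensus that GLI factors bind, was searched on both strands and was in 0 of the 31 windows of the 24 members listed in the RefSeq table, and in 0.225% of all 32851 windows. ACAAAG was in 7 of the 31 windows (22.6%, of Cnp, Gpm6b, Mag, Mobp, Opalin and Tspan2) and in 16.5% of all windows. CAGCTG was in 5 of the 31 (16.1%, of Aspa, Gsn, Lhfpl3 and Lingo1) and in 13.0% of all. These are matches of letters and say nothing of binding.

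The precursor members that could be measured lay on either side of 0. Pdgfra gave 120.2 and 109.7, which after scaling is a difference of -0.41 ± 0.21, 1.33-fold lower. Its other 2 probes, for further transcripts, were not above background. Lhfpl3, a membrane protein gene enriched in oligodendrocyte precursors, gave 145.8 and 225.4, a difference of 0.35 ± 0.21, 1.28-fold higher. The second Lhfpl3 probe, for another transcript, gave 70.5 and 120.4, a difference of 0.49 ± 0.22. Pdgfra and Lhfpl3 thus differed in opposite directions, and both were within 1.5-fold.

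Of the maturation members, the 2 that were measured were nearly alike on both arrays. Bcas1, a protein of newly forming myelin, gave 14826 and 20024, a difference of 0.16 ± 0.20, and 0.07 ± 0.20 on its second probe. Zfp488, a zinc finger partner of Olig2 that promotes maturation, gave 5877 and 7095, a difference of -0.01 ± 0.20. After scaling, both lay within the software error of 0.

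The genes of myelin membrane proteins held the widest range among the members. Omg, a membrane-anchored glycoprotein of oligodendrocytes and neurons that binds the Nogo receptor, gave 143.5 and 68.7. Its difference was -1.34 ± 0.22, 2.53-fold lower. Omg lies within the span of Nf1, the neurofibromin gene, whose own probes differed by -0.01 ± 0.20 (391.9 and 472.7) and -0.01 ± 0.21 (226.1 and 272.9). Tspan2, a tetraspanin of oligodendrocytes, gave 28.4 and 16.2, the latter not well above background, so it was at least 2.13-fold lower. That spot was brighter than the lowest signal well above background, so the bound equals the measured difference of -1.09 ± 0.38, and within this error the true fold may be less. Omg and Tspan2 were the members past 2-fold, both lower, so 2 of 21 measured members were lower (2.69% of all measured genes), 0 were higher (2.6%) and 2 differed in either direction (5.29%). Tspan2 had a mean signal under 50, where 13.6% of all genes were past 2-fold.

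Over the 10 measured members of this role, 5 lay above 0 and 5 below. Opalin, a membrane glycoprotein of myelin, gave 30.0 and 60.0, a difference of 0.73 ± 0.25, 1.65-fold higher. Mal, a proteolipid of myelin rafts, was not well above background in the control (4.59) and gave 25.8 with the Gli2 shRNA, higher by a bound of 1.67-fold. The bound takes the control spot at 12.8, the lowest signal well above background, and covers no error of the spots. Mbp, the basic protein that compacts myelin, was near background at 22.0 and 17.7, a difference of -0.60 ± 0.37, with its other 2 probes not well above background. Mag, the adhesion protein of the inner myelin layer, was also dim at 28.8 and 26.5, a difference of -0.40 ± 0.32. The values of these 4 genes come from dim spots.

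The brighter membrane genes differed little. Mog, on the outer surface of myelin, gave 117.2 and 159.5 (0.17 ± 0.21), and its other probe was not well above background. Cnp, a phosphodiesterase that keeps channels of cytoplasm open in myelin, gave 363.2 and 513.8 (0.22 ± 0.20). Ermn, a cytoskeletal protein of mature oligodendrocytes, gave 4612 and 5776 (0.05 ± 0.20). Gpm6b, a proteolipid also made by neurons and glial precursors, gave 29642 and 30052 (-0.26 ± 0.20). All of these 4 lay within 1.5-fold.

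Among the genes of myelin lipids and oligodendrocyte metabolism, 4 of 5 measured members lay above 0. Ugt8a, which makes galactosylceramide, the chief lipid of myelin, gave 14.8 and 35.7, a difference of 0.995 ± 0.36 at 1.99-fold, close to background in the control. Its second probe was not above background. Qdpr, a dihydropteridine reductase that is abundant in oligodendrocytes, gave 11968 and 20535, a difference of 0.50 ± 0.20. The other Qdpr probes gave 6759 and 11915 (0.54 ± 0.20) and 2220 and 4189 (0.64 ± 0.20). Qdpr was thus higher on 3 of 3 probes at bright signals, by 1.42-fold on the brightest.

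Gsn, the actin-severing protein gelsolin, gave 1219 and 1832 (0.31 ± 0.20). Sirt2, a deacetylase that acts on tubulin in myelinating cells, gave 1557 and 2117 (0.17 ± 0.20) and 0.12 on its second probe. Trf, the iron carrier transferrin, gave 3271 and 3502 (-0.18 ± 0.20) and -0.12 on its second probe. Trf was the member of this role that lay below 0.

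The genes of contact between axon and myelin were without a shared direction. Nfasc, an adhesion protein of the node and paranode, had 4 dim probes that did not point the same way. Its brightest probe gave 28.3 and 59.4 (0.79 ± 0.28) and another gave 30.8 and 49.6 (0.41 ± 0.27). One more, measured on the Gli2 shRNA array only, gave a lower bound of 0.76, and the last gave 36.2 and 28.1, a difference of -0.65 ± 0.28. The mean of the 4 was 0.33. Lingo1, a partner of the Nogo receptor that holds back oligodendrocyte maturation, gave 94.4 and 92.2, a difference of -0.31 ± 0.22.

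**Figure D2:**
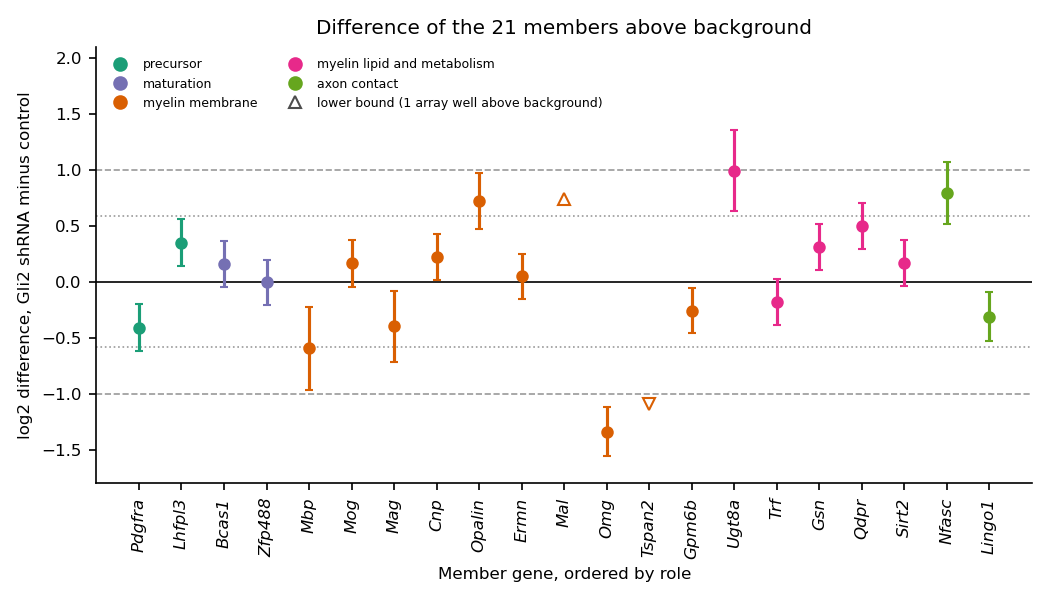
Scaled log2 difference (Gli2 shRNA minus control) of the 21 members measured on at least 1 array, coloured by role, with the software error as bars; open triangles are lower bounds, dashed lines mark 2-fold and dotted lines 1.5-fold. Omg (-1.34) and Tspan2 (lower by a bound of 2.13-fold) lie past 2-fold, and Ugt8a (0.995) lies just short of it.

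**Figure D3:**
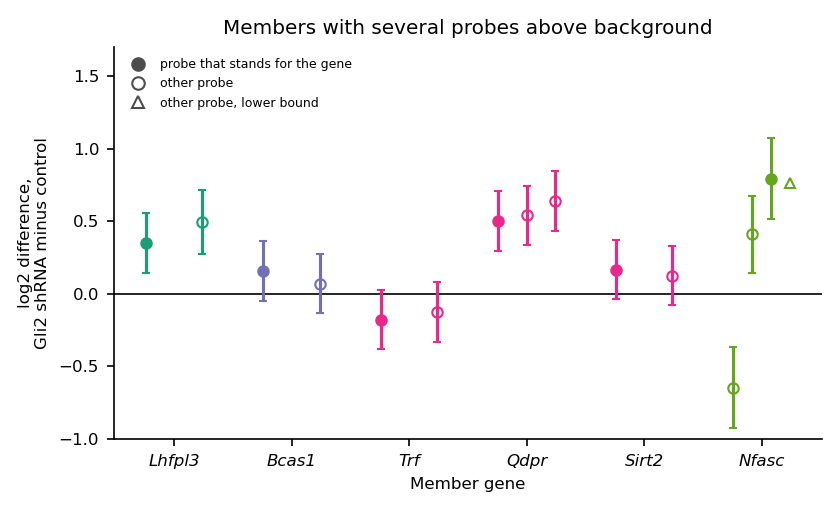
Scaled log2 difference of each probe for the 6 members with several probes above background, with the software error as bars; filled points are the probe that stands for the gene and the triangle is a lower bound. The probes of Lhfpl3, Bcas1, Trf, Qdpr and Sirt2 lie on the same side of 0, and those of Nfasc do not.

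As a list, 12 of the 21 measured members lay above 0 and 9 below (57.1% above, against 48.8% of all measured genes), with a median of 0.16 beside -0.01 for all. The median was 0.29 with median scaling, 0.14 with quantile normalization, 0.16 with cyclic loess and 0.06 with normexp, and turned to -0.06 when all 31 entered without the filter on dim probes. At 1.5-fold, 4 were higher (Opalin, Mal, Ugt8a and Nfasc, against 6.96% of all genes) and 3 lower (Mbp, Omg and Tspan2, against 8.9%), which is 7 in either direction (against 15.9%). All 7 are myelin members, and 6 of them had a mean signal under 50, where 35.7% of all genes were past 1.5-fold. In that range the SD of the difference over all genes was 0.79. Among genes with several probes whose dimmest probe was under 50, probes of the same gene differed by a median SD of 0.22. Omg, at a mean signal between 50 and 200, lay in a range where 8.67% of genes were past 2-fold. None of the 8 members with a mean signal of 1000 or more was past 1.5-fold, where 5.24% of genes were. Of the 19 members measured on both arrays, 5 differed by over 2 software errors (Omg, Opalin, Ugt8a, Qdpr and Nfasc), against 19.5% of all such genes.

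The precursor and the myelin members were set side by side by their medians. The 2 measured precursor genes had a median of -0.03, the 2 maturation genes 0.08 and the 17 measured myelin genes 0.17. The precursor median minus the myelin median was -0.20 on the log2 scale and rests on Pdgfra and Lhfpl3. Against the 10 measured membrane protein genes alone, whose median was -0.11, the sign turned to 0.08. The myelin lipid and metabolism genes had a median of 0.31.

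Of further genes of the same lineage, 3 lists were examined, beside 48.8% of all genes above 0. Of 18 transcription and RNA regulators of the lineage, 16 were measured, 12 lay below 0 and the median was -0.33. At 1.5-fold, 4 of these were lower (Sox6, Olig1, Qk and Zfp536, against 8.9% of all genes) and 0 higher (against 6.96%). With median scaling 3 were lower and 2, Zeb2 and Hes5, were higher. As reported these 2 lay just within 1.5-fold. Zeb2 gave 1009 and 1797 (0.556 ± 0.20), with 0.30, -0.31 and -0.10 on its other probes. Hes5 gave 1132 and 2014 (0.555 ± 0.20), and its other probe, measured on the Gli2 shRNA array only, gave 0.48. Sox6, which holds precursors in their immature state, gave 937.3 and 424.4, a difference of -1.42 ± 0.20. Its other 2 probes, measured on the control array only, were lower by bounds of -1.20 and -1.38. Olig1, the partner of Olig2, gave 5670 and 4497 (-0.61 ± 0.20).

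Qk, an RNA-binding protein needed for myelin transcripts, gave 4842 and 2903, a difference of -1.02 ± 0.20. Its other probes gave -0.88 and -0.08, so the lower level was not shared by all 3. Zfp536, a zinc finger repressor, gave -0.82 ± 0.30 on 1 probe, and its other probe, not well above background in the control, was higher (13.0 and 44.3), so it has no settled direction. Of the regulators on the brightest probes, Etv5 differed by -0.18 ± 0.20, Sox5 by -0.36 ± 0.20, Id2 by 0.01 ± 0.20 and Chd7 by 0.31 ± 0.20, the last with -0.19 and -0.45 on its dim probes.

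Of 14 other precursor genes, 13 were measured and 9 lay below 0, with a median of -0.24. Among the 5 with a signal of 100 on at least 1 array, 3 lay below 0 and the median was -0.07. Of the 13, 1 was lower past 1.5-fold (against 8.9% of all genes) and 0 were higher (against 6.96%). The lower gene was Ptprz1, a receptor phosphatase of precursors and glioma cells. It gave 9709 and 5561 on its brighter probe (-1.08 ± 0.20) and 968.5 and 393.9 on the other (-1.58 ± 0.20). Of all genes with a mean signal of 1000 or more, 0.945% were past 2-fold. Vcan, a matrix proteoglycan, differed by -0.07 ± 0.20, Sema5a, a guidance protein, by 0.24 ± 0.20 (-0.41 on its dim probe), and Pdgfa, the ligand of Pdgfra, by 0.27 ± 0.20.

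Of 17 other myelin genes, 13 were measured and 8 lay below 0, with a median of -0.25. At 1.5-fold, 3 were higher (against 6.96% of all genes) and 1 lower (against 8.9%). Of these, Enpp2, Septin4 and Pllp had a mean signal under 50. In that range 35.7% of all genes were past 1.5-fold and 13.6% past 2-fold. Enpp2, which makes lysophosphatidic acid and is secreted by oligodendrocytes, gave 71.8 and 25.8, a difference of -1.75 ± 0.29. Septin4, a septin, was measured on the Gli2 shRNA array only (10.5 and 32.3). It was higher by a bound of 2.09-fold, which covers no error of the spots. Adamts4, a matrix protease of mature oligodendrocytes, gave 664.8 and 1478 (0.88 ± 0.20), with 0.60 and 0.21 on its dimmer probes, and Pllp, the proteolipid plasmolipin, gave 17.6 and 37.4 (0.81 ± 0.31). Car2, a carbonic anhydrase, differed by -0.01 ± 0.20, Plekhb1 by -0.42 ± 0.20 and Plekhh1 by -0.43 ± 0.20.

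**Figure D4:**
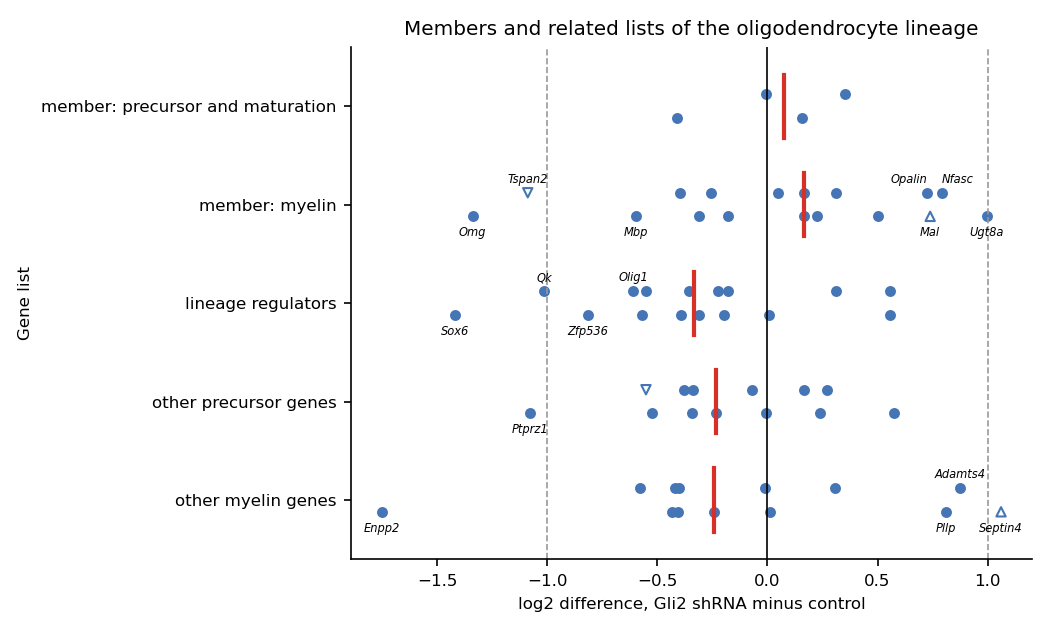
Scaled log2 difference of the measured genes in the member groups and in the 3 related lists; filled points were measured on both arrays, open triangles are lower bounds, red bars are list medians and dashed lines mark 2-fold, with genes past 1.5-fold named. Medians run from -0.33 (lineage regulators) to 0.17 (myelin members).

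The medians of the related lists stayed below 0 under each scaling, but the balance of their members did not hold in all of them. With median scaling 12 of the 16 regulators lay below 0, but 7 of 13 other precursor and 7 of 13 other myelin genes did, and the latter count was also 7 of 13 with cyclic loess and with normexp. With median scaling the medians were -0.20 for the regulators, -0.10 for the other precursor genes and -0.11 for the other myelin genes. The median of all genes was then 0.13. Median scaling moves every gene by the same 0.14, so it could not change where the lists lie relative to all genes. The other myelin genes came close to 0 with quantile normalization (-0.038) and cyclic loess (-0.046), where the regulators had medians of -0.32 and -0.33. With normexp, a background correction that pulls dim differences toward 0, they were -0.28, -0.22 and -0.13. Of the related genes past 1.5-fold, normexp gave -1.18 for Sox6, -1.02 for Ptprz1, -0.93 for Qk, 0.88 for Adamts4, and -0.79 for Enpp2, and left Olig1 (-0.56) and the dim genes Zfp536 (-0.38), Septin4 (0.31, a bound) and Pllp (0.11) within 1.5-fold.

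Markers of other cells were checked on the same arrays. Summed signals are given before scaling, and medians are of the scaled differences. Of 8 astrocyte markers 7 were measured, with Gja1 not above background. On the brightest probes all 7 lay below 0 (median -0.47, summed signal 12664 and 10714). The probes of Gfap and Aqp4 did not all point the same way. Gfap gave 21.3 and 16.5 on its brightest probe and 9.28 and 18.3 on the other, each measured on 1 array only. The dimmer Aqp4 probes gave -0.96 ± 0.26 and 0.33 ± 0.40. Of 6 neuron markers 5 were measured, 3 above 0 and 2 below (median 0.05, summed signal 23099 and 21890), with Stmn2 not above background. Most of that signal came from Map2 (18672 and 16146, a difference of -0.49 ± 0.20). Tubb3 went the other way and was past 1.5-fold (781.0 and 1583, a difference of 0.74 ± 0.20). Of 8 microglia markers 5 were measured, 2 of them on both arrays (median -0.49, summed signal 5142 and 5872). Nearly all of the signal came from Itgam (4694 and 5413), which differed by -0.07 ± 0.20, and by 0.37 on its dim probe. Csf1r, also measured on both arrays, gave 389.9 and 432.5 (-0.13 ± 0.205), and 0.02 on its second probe. Aif1, P2ry12 and Tmem119 were dim and measured on the control array only, and the median is the bound of Aif1. Cx3cr1, Ptprc and C1qa were not above background. Of 5 endothelial markers 2 were measured (median -0.26, summed signal 106.5 and 103.0, without Cdh5, Cldn5 and Flt1). Of 4 mural and fibroblast markers 1 was measured, on the control array only (16.0 and 15.1), and of 3 Schwann cell markers 2 were (median -0.32, summed signal 2729 and 2251, with Cdh19 not above background). The part of these cell types in the differences of the members was not tested.

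Normexp, which was run with an offset of 50 added to each signal, changed the calls of the dim members. Such an offset shrinks the differences of dim spots by construction. Over all genes, 1.34% were past 2-fold with normexp, against 5.29% as reported. The part of the offset in the lost calls was not tested. With normexp, Omg differed by -0.85, Tspan2 by a bound of -0.39, Mbp by -0.28, Ugt8a by 0.13, Opalin by 0.17, Mal by a bound of 0.12 and Nfasc by 0.06, so that Omg alone stayed past 1.5-fold and no member stayed past 2-fold. Qdpr differed by 0.50 to 0.64 over the settings tried.

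**Figure D5:**
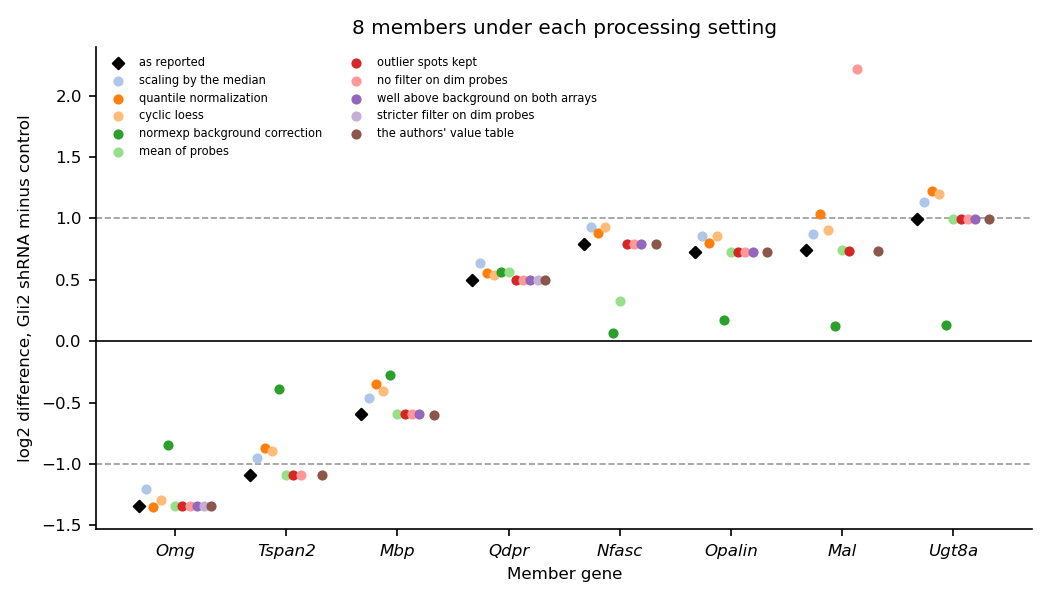
Log2 difference (Gli2 shRNA minus control) of 8 members as reported (black diamonds) and under each of 10 other settings (coloured points; a setting that leaves a gene out has no point); dashed lines mark 2-fold. Normexp (dark green) draws Nfasc, Opalin, Mal and Ugt8a toward 0, while the points of Qdpr lie between 0.50 and 0.64 and those of Omg between -1.35 and -0.85.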

How the data were processed

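Per the labels' protocols, Cy3-labelled RNA of both cultures was hybridised to Agilent arrays in 1 colour. The deposited intensities are, per the file headers, the output of Feature Extraction 12.1.0.3 by Agilent (protocol GE1_1200_Jun14, design 074809, grid build mm9); both arrays sat on 1 slide in 1 scan. The authors' deposited value table is on a log2 scale of unstated centring. Its medians were -3.55 and -3.69, and each column equalled the log2 processed signal minus a constant (8.36 and 8.64). Over the matched probes the 75th percentiles of its columns were 0.005 and 0.003, so its values are centred close to the 75th percentile, as here.

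Spots flagged as non-uniform or population outliers were left out (126 and 120), no spot was saturated, and spots of a probe were averaged on the log2 scale, leaving 56595 probes. Of these 34560 matched 1 gene through RefSeq accessions (table of assembly GRCm38.p6) and 22035 none. Each array was scaled to its 75th percentile (signals of 329 and 399). A gene with several probes was represented by its brightest measured probe. Where 1 array only was well above background, the dim spot was given its own signal or, if brighter, the lowest signal well above background. Genes were called at 2-fold and 1.5-fold, with no test. Named were all members, Gli2, genes of the related lists past 1.5-fold, up to 4 of the brightest of each, and defining markers. Hes5, Nf1, Olig2, Sox10 and Zeb2 lie outside this rule and were chosen after values were seen. A few genes of the related and marker lists are not reported here. The members and lists were chosen with earlier results of these data known. limma 3.58.1 gave quantile, cyclic loess and normexp values, the last with an offset of 50. The scripts were tested on simulated data. The number of arrays limits the precision; the median SD of 210 probes with 10 spots was 0.04 on each array.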

Additional observations from a re-analysis of the deposited data

How the results depend on the processing

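Of 200 values of single members under the alternatives, 193 moved by less than the software error and 7 (of 6 genes) by more. The 193 are no measure of stability, since several alternatives could hardly move a value. The authors' table differs from the processed signal by a constant, and stricter filters leave the values of the genes they keep. Median scaling moves each difference by 0.14, less than the software error of any member. With normexp, Omg, Tspan2, Opalin, Ugt8a and Nfasc moved by more. Of the 7 members past 1.5-fold, 0 changed sign. Members past 2-fold were 0 higher and 2 lower as reported. They were 1 higher and 1 lower with median scaling, 2 and 1 with quantile normalization and 1 and 1 with cyclic loess. With normexp, 0 members were lower past 2-fold, and past 1.5-fold 0 were higher and 1 lower. Normexp used the median spot signal and was chosen after seeing the data, since the files hold no mean spot signal. Requiring both arrays above background left 1 member lower past 2-fold; the stricter filter (a signal of 100 on at least 1 array) also left 1, and past 1.5-fold 0 higher and 1 lower, because it keeps 13 members. Without the filter all 31 members entered, with 1 higher and 5 lower past 2-fold and 7 lower past 1.5-fold, and medians of -0.057 for all members, -0.574 for precursor and -0.068 for myelin genes, a difference of -0.506. With membrane protein genes alone as myelin the difference was 0.076. Over all genes, normexp called 89 higher and 126 lower at 2-fold and 485 and 542 at 1.5-fold; without the filter 769 and 2075, and 1698 and 3807. At 1.5-fold higher genes were 43.9% of calls, 63.1% with median scaling, 54.8% with quantile normalization and 30.8% without the filter. Zfp536 turned to 0.34 with the mean of its probes. Where no construction of the alternative shows it, the cause was not tested. Naming by the symbols of the scanner files was not run. No paired analysis was possible because each group holds 1 array. Dim signals limit most myelin genes.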
